A study of Mus musculus with 20 samples.

Results

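Annexins are proteins that bind phospholipid membranes when calcium rises, and 10 annexin genes of the mouse (Anxa1, Anxa2, Anxa3, Anxa4, Anxa5, Anxa6, Anxa7, Anxa8, Anxa10 and Anxa11) of the 27962 gene names on the array were followed in whole trachea. Every non-control probe whose gene name on the array was 1 of these names was taken, which gave 16 of the 41174 probes and 25 spots per array, with Anxa8 spotted 10 times. The genes were chosen by family name and by injury differences already measured on these arrays, in which Anxa10 was known to be higher after injury. The injury differences of these genes are therefore given as a description with no p of their own, and counts of those past the threshold stand only beside the share of all probes, while the comparisons between genotypes were tested.

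Tracheas came from 20 C57/Bl6 mice labelled 4 months of age, in 4 groups of 5. WT-control and WT-injury were wild-type mice, uninjured or collected 3 days after 2% polidocanol, a detergent that strips the airway surface epithelium, which the labels call intratracheal and the methods describe as oropharyngeal instillation. KO-control and KO-injury were Myd88KO mice treated alike, with a germline deletion of Myd88, the adaptor through which most Toll-like receptors and the interleukin-1 receptor signal. Every cell of a Myd88KO mouse carries the deletion, the knockout and the wild-type mice were kept as separate colonies, and both sexes were used. The methods describe the knockout line as back-crossed to the C57/Bl6JOlaHsd strain and then bred knockout to knockout. Colony, strain background and genotype cannot be told apart. Whole trachea holds surface epithelium, glands, cartilage, muscle, vessels and leukocytes. In such bulk tissue, fewer cells of a type and less RNA per cell cannot be told apart. The p-values measure the spread between the mice of these groups.

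The members of the family share a core of repeated domains that grips membranes and differ in their N-terminal ends, which bind other proteins. Anxa1 is best known for limiting inflammation through formyl peptide receptors, Anxa2 pairs with S100a10 at the cell surface and promotes plasmin formation, and Anxa5 binds the phosphatidylserine that dying cells expose. Several members, among them Anxa1, Anxa2, Anxa5 and Anxa6, gather at torn plasma membranes during repair. In airway, Anxa1, Anxa2 and Anxa8 are made by epithelium, and Anxa10 is known from stomach and urothelial epithelium.

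Each trachea was hybridised to 1 Agilent array in 1 colour. Levels are log2 signal relative to the 75th percentile of the same array, so that 0 is that percentile and a difference of 1 is a doubling. Levels are compared between mice and not between probes. Between 57.5% and 67.8% of the probes of an array were well above background. Mice with the same replicate number, 1 of each group, shared a slide, and the 5 slides were scanned over 2 days (3 slides on day 1 and 2 on day 2). The deletion showed weakly at the probe for Myd88, 0.21 lower in uninjured Myd88KO trachea (adjusted p = 1.00) and 0.77 lower after injury (limma with Benjamini-Hochberg adjustment, adjusted p = 0.00824). Whether that probe lies in the deleted sequence is not known here. Some arrays stood apart. WT-control replicate 3 had a mean level of squamous keratin and envelope genes of 5.43, against at most 0.54 in the other WT-control mice. KO-injury replicate 5 had the lowest share of probes above background and 192 outlier spots, against 69 to 113 in the other arrays. It also had almost none of the wild-type injury response, with a slope of -0.03 over the probes called in wild-type mice. The other KO-injury mice had 0.34 to 0.97 and the WT-injury mice 0.85 to 1.14. Since the probes were chosen in these wild-type mice, the wild-type slopes are no independent reference. The 0.34 was KO-injury replicate 1, whose mean level of ciliated cell genes, 3.64, was the highest of all mice. In a fit with array weights, KO-injury replicates 1 and 5 had the lowest weights, both 0.32.

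All 10 genes were measured by at least 1 probe that passed the filter of being well above background on 10 of the 20 arrays, and 14 of the 16 probes passed. The 2 remaining probes (AK076467 of Anxa3 and AK032703 of Anxa4) were not well above background on any array, and these genes were read from their other probes. 13 probes were well above background on every array, and Anxa10 on 18. Over the 10 spots of Anxa8 within an array the SD was between 0.02 and 0.08 on the log2 scale.

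After injury in wild-type mice, Anxa10 was 13.7-fold higher, Anxa2 and Anxa1 were 1.42-fold to 1.59-fold higher on average with overlapping groups, and the other members lay close to their uninjured levels. In Myd88KO mice Anxa10 was 21.8-fold higher by the values as read, and 14.4-fold higher where the 2 KO-control arrays below background were set to their floor. The floor of an array was its lowest signal well above background. In the same mice Anxa1, Anxa2 and Anxa3 were 1.45-fold to 1.77-fold higher. With the threshold of an adjusted p of 0.01, 1 of the 14 annexin probes was called in each genotype, Anxa10 both times, beside 5.26% of all 26063 probes in wild-type and 0.376% in Myd88KO mice. Nothing is read from these counts, since the genes were listed with the injury results known. The difference was positive at 11 of 14 probes in wild-type mice, with a median of 0.19 beside 5.9e-05 over all probes. In Myd88KO mice it was positive at 12 of 14, with a median of 0.15 beside -0.07. Without KO-injury replicate 5, 3 annexin probes were called in Myd88KO mice (Anxa10, Anxa1 and Anxa3), beside 4.12% of all probes. None was called there without KO-control replicate 1, 2 or 3 or without KO-injury replicate 1, 2, 3 or 4.

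**Figure D1:**
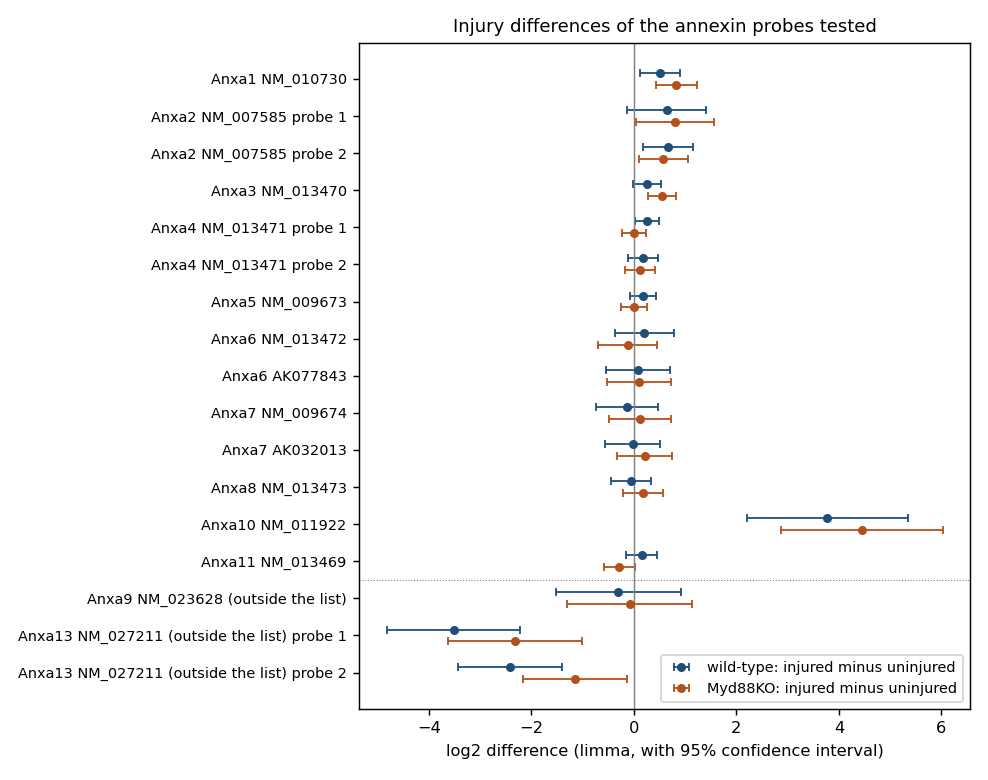
Injury differences of the 14 annexin probes tested, with the probes of Anxa9 and Anxa13 below the dotted line. The horizontal axis is the log2 difference, injured minus uninjured, with its 95% confidence interval, for 5 against 5 mice in wild-type (blue) and Myd88KO (orange). Anxa10 stands at 3.77 and 4.45, and every other listed probe lies below 1.

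Anxa10 is the member whose injury values the description turns on. Its levels in WT-control mice were -3.71, -2.88, -3.11, -3.31 and -2.82 (replicates 1 to 5), and in WT-injury mice -1.0, 0.66, 2.42, 0.99 and -0.02. Every injured wild-type mouse was above every uninjured one, and the lowest injured mouse was 1 whose slide was scanned on day 2. In KO-control mice the levels were -4.03, -6.57, -6.01, -2.94 and -2.67, of which replicates 2 and 3 were not well above background. In KO-injury mice they were -0.19, -0.32, 0.96, 1.58 and -2.0. All 5 injured Myd88KO mice were above the 5 uninjured ones, with replicate 5 the lowest of the injured. The difference was 3.77 ± 0.75 (SE, n = 5 and 5, 95% confidence interval 2.20 to 5.35) in wild-type and 4.45 ± 0.75 (2.87 to 6.02) in Myd88KO mice. With the values below background raised to the floor, the Myd88KO difference was 3.85. On slides scanned on day 1 the differences were 4.46 and 5.91 in wild-type and Myd88KO mice, and on day 2 they were 2.75 and 2.25. The 2 dim KO-control arrays were both scanned on day 1, and their values below background enter these differences as read.

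**Figure D2:**
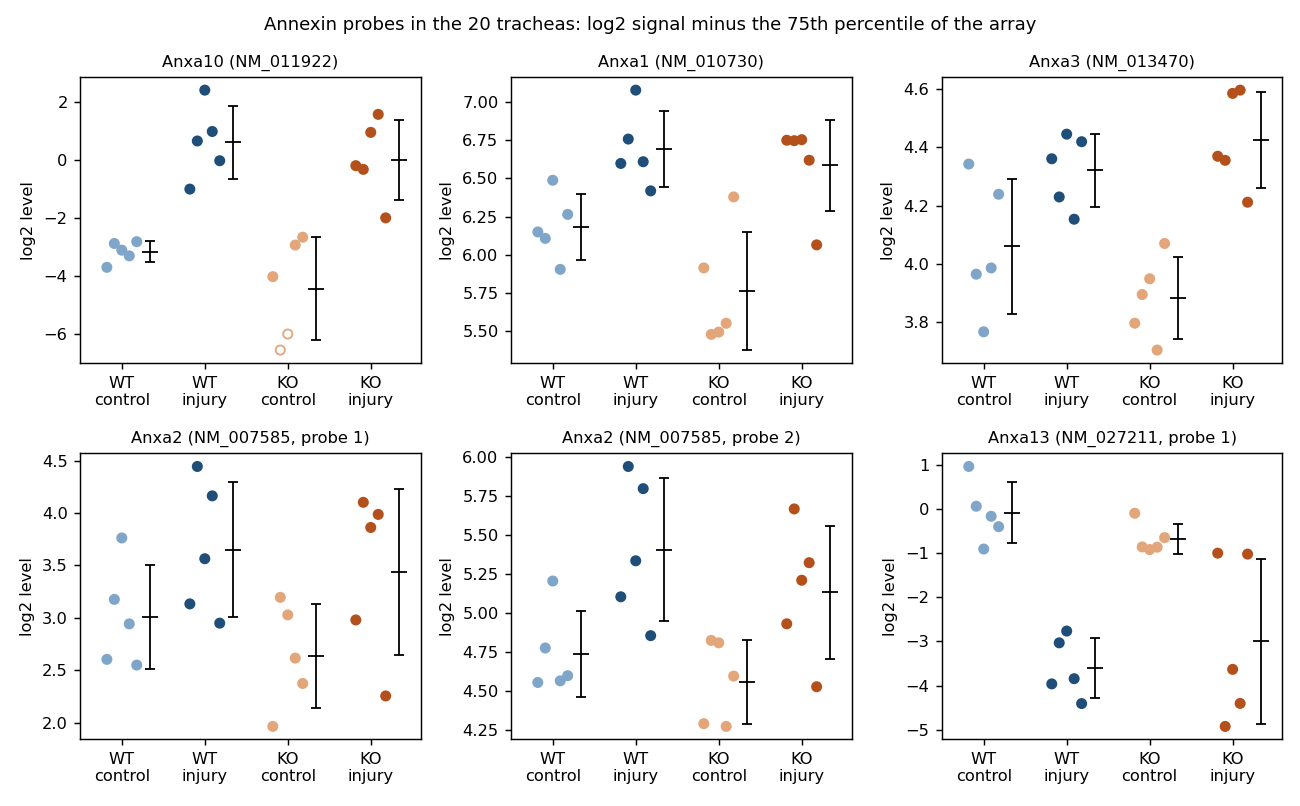
Levels of Anxa10, Anxa1, Anxa3, Anxa2 (both probes) and Anxa13 (probe 1) in each mouse. The vertical axis is log2 signal relative to the 75th percentile of the array, a dot is 1 mouse (open where the probe was not well above background), and bars give the mean ± SD of 5 mice. The Anxa10 dots of the injured groups lie above all dots of the uninjured groups, while those of Anxa1 and Anxa2 overlap.

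The promoters of the 3 members with the largest wild-type injury differences are printed to show which short motifs of injury-linked factors they hold. They are the 250 bases before the transcription start from RefSeq (GRCm38.p6), 5′ to 3′ on the strand of the gene, at chr8:62123194-62123443 (minus strand) for Anxa10, chr9:69453433-69453682 (plus strand) for Anxa2 and chr19:20390672-20390921 (minus strand) for Anxa1. Capitals mark the AP-1 motif TGANTCA and the TATA box TATAAA.
Anxa10: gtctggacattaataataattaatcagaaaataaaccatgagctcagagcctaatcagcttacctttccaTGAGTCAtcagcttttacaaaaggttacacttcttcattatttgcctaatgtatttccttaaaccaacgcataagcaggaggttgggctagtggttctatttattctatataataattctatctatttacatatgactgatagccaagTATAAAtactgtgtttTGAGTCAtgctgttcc
Anxa2: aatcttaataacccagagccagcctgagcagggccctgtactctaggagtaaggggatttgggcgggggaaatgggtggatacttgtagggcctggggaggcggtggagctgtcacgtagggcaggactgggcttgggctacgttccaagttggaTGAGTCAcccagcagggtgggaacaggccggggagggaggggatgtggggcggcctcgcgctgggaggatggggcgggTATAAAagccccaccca
Anxa1: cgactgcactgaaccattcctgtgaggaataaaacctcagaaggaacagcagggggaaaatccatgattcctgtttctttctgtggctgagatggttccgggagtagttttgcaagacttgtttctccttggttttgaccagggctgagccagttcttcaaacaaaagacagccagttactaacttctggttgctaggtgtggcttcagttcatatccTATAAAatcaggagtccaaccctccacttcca
Anxa10 held 2 AP-1 matches, 180 to 174 and 16 to 10 bases before the start, and a TATA box 32 to 27 bases before it. Anxa2 held 1 AP-1 match, 95 to 89 bases before the start, and a TATA box at 17 to 12. Anxa1 held a TATA box at 32 to 27 and no AP-1 match. Both strands were searched, and an AP-1 site read on both strands was counted once. Of 32841 mouse promoters of the same length, 6.75% held an AP-1 match and 12.4% a TATA box. The STAT motif TTCNNNGAA, in 7.02% of all promoters, was in no member, and the NF-kB motif, in 3.90%, was in 1 of the 2 promoters of Anxa4. Entries were given for 8 of the 10 members, not for Anxa3 and Anxa6, and the promoters of Anxa5, Anxa7, Anxa8 and Anxa11 held none of these motifs. These are matches of letters, and binding was not measured.

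Anxa1, the member known for resolving inflammation, was modestly higher in injured mice. WT-control mice had 6.15, 6.11, 6.49, 5.90 and 6.26, and WT-injury mice 6.60, 6.76, 7.08, 6.61 and 6.42. The injured mouse of each slide was above its uninjured partner, although the groups overlapped between 6.42 and 6.49. KO-control mice had 5.91, 5.48, 5.49, 5.55 and 6.38, and KO-injury mice 6.75, 6.75, 6.75, 6.62 and 6.06. The 4 KO-injury mice other than replicate 5 were above all uninjured Myd88KO mice. The difference was 0.51 ± 0.19 (SE) in wild-type and 0.82 ± 0.19 in Myd88KO mice, and without KO-injury replicate 5 the latter was 0.96. On day 2, which holds KO-injury replicate 5, the Myd88KO difference was 0.26, against 1.20 on day 1.

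Anxa2, the partner of S100a10, was measured by a pair of probes for 1 transcript, and both gave a higher mean after injury. At probe 2 the WT-control mice had 4.56, 4.78, 5.21, 4.57 and 4.60, and the WT-injury mice 5.11, 5.94, 5.34, 5.80 and 4.86. All 5 slides had the injured mouse above the uninjured 1, with overlap from WT-control replicate 3, the mouse with squamous genes. The KO-control mice had 4.29, 4.83, 4.81, 4.28 and 4.60, and the KO-injury mice 4.93, 5.67, 5.21, 5.33 and 4.53. The groups overlapped through KO-injury replicate 5 alone, which was the 1 injured Myd88KO mouse below its slide partner. The differences were 0.67 ± 0.23 and 0.57 ± 0.23 (SE) in wild-type and Myd88KO mice at probe 2, and 0.64 ± 0.37 and 0.80 ± 0.37 at probe 1, where the spread between mice was wider. At probe 2 they were 0.84 and 0.76 on slides scanned on day 1, and 0.40 and 0.29 on day 2.

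Anxa3, which is found in neutrophils and in epithelium, differed most clearly in Myd88KO mice. KO-control mice had 3.80, 3.90, 3.95, 3.70 and 4.07, and KO-injury mice 4.37, 4.36, 4.59, 4.60 and 4.21. These groups did not overlap, and the difference was 0.54 ± 0.13 (SE). WT-control mice had 4.34, 3.97, 3.77, 3.99 and 4.24, and WT-injury mice 4.36, 4.23, 4.45, 4.15 and 4.42. The wild-type groups overlapped, with a difference of 0.26 ± 0.13. The neutrophil genes S100a8, S100a9, Retnlg, Csf3r and Cxcr2, all 5 tested, had a mean level of -3.32 to -0.28 in WT-control, -0.07 to 3.27 in WT-injury, -5.29 to -3.35 in KO-control and -4.74 to 1.00 in KO-injury mice. Values below background enter these means as read, with Csf3r well above background on only 10 arrays, Cxcr2 on 11 and Retnlg on 13. The low means are therefore imprecise. 1 of the 5 was called higher in wild-type mice, beside 5.26% of all probes called, and 0 in Myd88KO mice, beside 0.376%. At an unadjusted p under 0.05 there were 5 of 5 in wild-type and 3 of 5 in Myd88KO mice. Of all 26063 probes, 6886 and 5077 were under 0.05 in these comparisons. The part of neutrophils in the Anxa3 values was not tested.

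The remaining members moved little with injury. Anxa4, expressed in secretory and duct epithelium, had differences of 0.25 and 0.17 at its probes in wild-type and 0.00 and 0.11 in Myd88KO mice. Anxa5, widely used to detect apoptotic cells, had 0.18 (95% confidence interval -0.07 to 0.43) in wild-type and 0.00 (-0.24 to 0.25) in Myd88KO mice. Anxa8, an epithelial member, had -0.05 (-0.44 to 0.33) and 0.18 (-0.21 to 0.57). For Anxa7, a member linked to vesicle fusion, 4 intervals at its 2 probes ran from -0.74 at the lowest to 0.74 at the highest. The intervals of Anxa6, the member with a duplicated core that is linked to cholesterol handling, ran from -0.70 to 0.78 over its probes and genotypes. Anxa11, which travels with RNA granules and lysosomes, had 0.15 ± 0.14 (SE) in wild-type mice and -0.28 ± 0.14 in Myd88KO mice, where the injured mouse of each of the 5 slides was lower.

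Marker genes of several cell types also differed after injury and were read beside the annexins. Of all probes, 5.26% were called after injury in wild-type and 0.376% in Myd88KO mice, so counts of calls are not compared between genotypes. An unadjusted p under 0.05 was held by 6886 of the 26063 probes in wild-type and 5077 in Myd88KO mice. Of 6 club cell genes 3 were called lower in wild-type and 2 in Myd88KO mice, with a mean level of 7.52 to 8.19 in WT-control, 4.42 to 5.39 in WT-injury, 7.58 to 8.04 in KO-control and 4.66 to 7.57 in KO-injury mice. Of 6 macrophage genes 4 were called higher in wild-type mice and 0 in Myd88KO mice, with 5 and 3 at an unadjusted p under 0.05. Their mean level was 1.49 to 1.88 in WT-control, 2.66 to 3.89 in WT-injury, 1.40 to 2.16 in KO-control and 1.37 to 3.26 in KO-injury mice. Of 5 basal cell genes 0 were called in either genotype (1 in each at an unadjusted p under 0.05), and their mean level was 3.53 to 4.95 in WT-control and 3.79 to 4.81 in WT-injury, 3.65 to 4.18 in KO-control and 3.87 to 4.93 in KO-injury mice. The squamous, cartilage, smooth muscle, skeletal muscle, brown adipocyte and endothelium lists had 0 genes called in any of the 5 comparisons, with at most 3 genes of a list at an unadjusted p under 0.05. The part of these shifts in the annexin differences was not tested.

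Between genotypes, 1 annexin probe differed, and it was the same probe before and after injury. AK077843, 1 of the 2 probes of Anxa6, was lower in uninjured Myd88KO mice, and 1 of 14 annexin probes was thus called beside 0.384% of all probes. In injured mice it was again the 1 probe called of 14, beside 0.38% of all probes. Its levels were -0.11, -0.63, -0.74, 0.22 and 0.56 in WT-control and -1.91, -2.63, -2.77, -1.78 and -2.36 in KO-control mice. In WT-injury mice they were 0.39, -0.69, -0.10, -0.50 and 0.60, and in KO-injury mice -2.82, -2.36, -1.98, -2.10 and -1.69. All 10 Myd88KO mice were below all 10 wild-type mice, whether injured or not. The difference was -2.15 ± 0.30 (SE, 95% confidence interval -2.77 to -1.52, limma with Benjamini-Hochberg adjustment, adjusted p = 3.53e-04) in uninjured mice, which is 4.43-fold lower. It was -2.13 ± 0.30 (adjusted p = 4.48e-04), or 4.38-fold lower, after injury. On the slides of day 1 and day 2 the difference was -2.01 and -2.36 in uninjured mice and -1.72 and -2.75 in injured mice.

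The other Anxa6 probe, NM_013472, did not share this difference. WT-control mice ranged from -0.38 to 0.27 with a median of 0.08, and KO-control mice from -0.19 to 0.91 with a median of 0.54. The genotypes overlapped, and the difference was 0.33 ± 0.28 in uninjured mice (limma, adjusted p = 1.00, 95% confidence interval -0.25 to 0.91) and 0.01 ± 0.28 in injured mice (adjusted p = 0.996). The intervals of the 2 probes in the uninjured comparison do not meet. The array files place AK077843 at chr11:54947962-54948021 and NM_013472 at chr11:54941843-54941902, 6059 bases apart, on a genome build that is not given in the sources used here. Which transcripts of Anxa6 each probe reads was not tested.

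**Figure D3:**
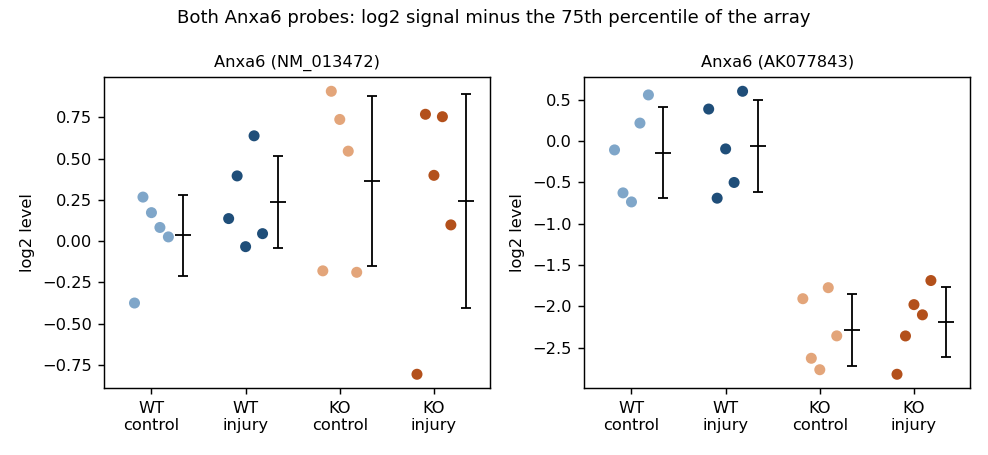
Levels of the 2 Anxa6 probes in each mouse. The vertical axis is log2 signal relative to the 75th percentile of the array, a dot is 1 mouse, and bars give the mean ± SD of 5 mice. At AK077843 the Myd88KO mice lie between -2.82 and -1.69 and the wild-type mice between -0.74 and 0.60, while at NM_013472 the genotypes overlap.

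Anxa6 and Myd88 lie on different chromosomes, 11 and 9. Within 2 Mb of AK077843 the array held 66 other tested probes of 43 genes, and 0 of them were called in the uninjured or in the injured comparison at an adjusted p of 0.01. The nearest to a call was 1700024C24Rik, a transcript of unknown function chosen after the values were seen, at -152673 bases from that probe. It was well above background in 5 of 5 WT-control, 4 of 5 WT-injury, 1 of 5 KO-control and 0 of 5 KO-injury mice, 10 arrays in all and the minimum of the filter, so it passed almost only through the wild-type groups and its Myd88KO levels are little more than bounds. By the values as read it was not called (limma adjusted p = 0.0365 uninjured and 0.0124 injured). With values below background raised to the floor, it was 2.24-fold lower in uninjured Myd88KO mice and 1.65-fold lower after injury. The uninjured difference passed the threshold only under that rule. The rule was added after seeing the data, so this is no test of a probe chosen by its values.

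**Figure D4:**
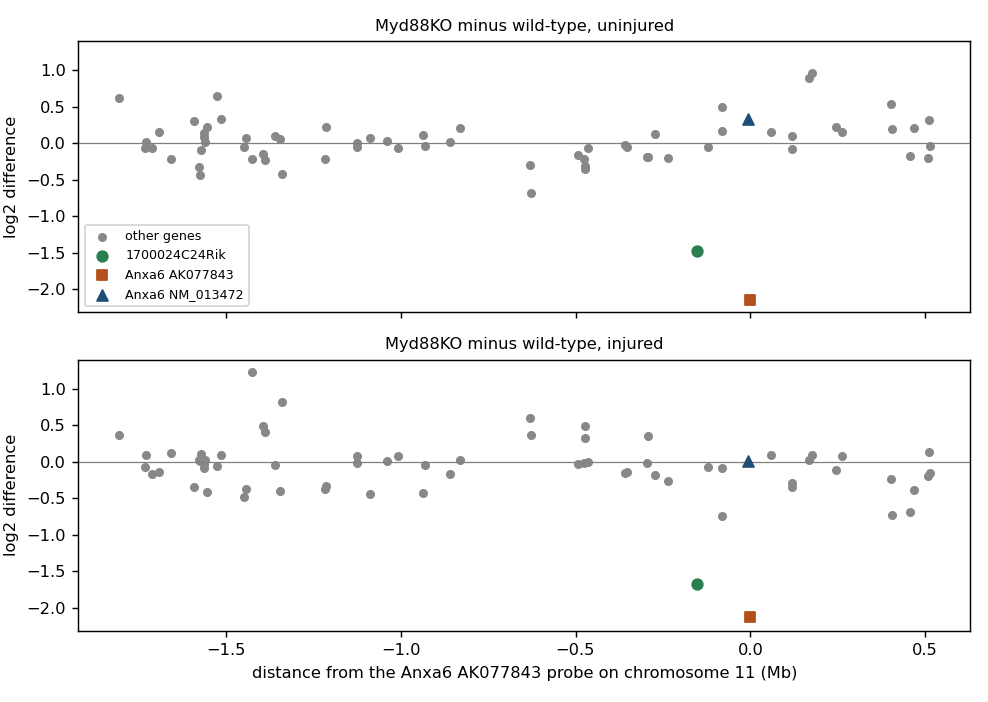
Genotype differences of the tested probes within 2 Mb of the Anxa6 probe AK077843, uninjured (top) and injured (bottom). The horizontal axis is the distance from that probe in Mb and the vertical axis the log2 difference, Myd88KO minus wild-type. Values below background are plotted as read. AK077843 lies at -2.15 and -2.13 and 1700024C24Rik at -1.48 and -1.68, while the other Anxa6 probe lies at 0.33 and 0.01.

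The other 13 annexin probes were not called between genotypes. In uninjured mice Anxa1 was 0.42 ± 0.19 lower in Myd88KO mice (difference -0.42, limma adjusted p = 0.834), and Anxa10 differed by -1.28 ± 0.75 (adjusted p = 1.00), with the 2 dim KO-control arrays the lowest of all, and by -0.68 with these at their floor. After injury Anxa1 differed by -0.11 (adjusted p = 0.868, 95% confidence interval -0.50 to 0.29) and Anxa10 by -0.60 (adjusted p = 0.789, -2.18 to 0.97). At an unadjusted p under 0.05, 2 of the 14 probes differed in uninjured and 1 in injured mice. Of all 26063 probes, 1458 and 3264 did so. The median annexin difference was -0.11 in uninjured mice beside 0.04 over all probes, and -0.08 after injury beside -0.03.

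Whether the injury response of an annexin depended on Myd88 was asked by the difference between the 2 responses, Myd88KO minus wild-type. 0 of the 14 annexin probes passed by limma, and 0% of all probes passed. At an unadjusted p under 0.05 were 2703 of all 26063 probes and 1 of the 14 annexin probes. That probe was Anxa11, whose response was 0.43 ± 0.20 lower in Myd88KO mice (difference -0.43, 95% confidence interval -0.86 to -0.01, adjusted p = 0.478). Its levels were 0.24, -0.12, -0.23, 0.18 and 0.53 in WT-control, 0.31, 0.27, 0.19, 0.48 and 0.12 in WT-injury, 0.18, 0.36, 0.54, 0.27 and 0.40 in KO-control and -0.15, 0.06, 0.04, 0.04 and 0.35 in KO-injury mice. All 4 groups overlapped, and the difference was -0.71 on day 1 and -0.01 on day 2. For Anxa10 the responses differed by 0.67 ± 1.07 (adjusted p = 0.847), an interval of -1.56 to 2.90. This interval holds both a clearly weaker and a clearly stronger response in Myd88KO mice, and with the values below background at their floor the difference was 0.08. For Anxa1 and Anxa3 the difference was 0.31 and 0.28, with adjusted p = 0.687 and 0.593.

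Genes that work with annexins were read from a list of 16: S100 proteins that bind annexins, formyl peptide receptors for Anxa1, membrane repair proteins, calcium-binding partners of Anxa7 and Anxa11, the plasminogen system and cytosolic phospholipase A2. Of these, 15 were on the array and 14 were tested. The list was chosen with earlier results of these data known, so its injury values are a description and nothing is read from the counts. In wild-type mice 4 of 14 were called higher after injury and 0 lower, beside 5.26% of all probes called in either direction. The median difference was 0.64 over the list, and 10 of 14 had an unadjusted p under 0.05, as had 6886 of all 26063 probes. The count of 4 moved between 1 and 5 when 1 array was left out. Those that rose were both formyl peptide receptors tested, Fpr1 and Fpr2, the S100 protein S100a4, and Plau, the urokinase that activates plasminogen. Plau differed by 1.51 ± 0.33 (SE) and S100a4 by 1.24 ± 0.27. By the values as read, Fpr1 differed by 4.55 ± 0.88 and Fpr2 by 4.28 ± 1.02. Fpr1 and Fpr2 were each well above background in 1 of 5 WT-control and 5 of 5 WT-injury mice, so both passed the filter mainly through injured mice. With the values below background raised to the floor the differences were 3.97 for Fpr1 and 3.39 for Fpr2, and Fpr2 was then not called. S100a10, the partner of Anxa2, differed by 0.84 and was not called. The 1 gene of the list with a negative difference was Pla2g4a, which releases arachidonic acid, at -0.30, and it was not called.

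In Myd88KO mice 0 of the 14 partner genes passed after injury by limma. At an unadjusted p under 0.05 there were 5, beside 5077 of all 26063 probes. Among the 5 was S100a6, for which 1 KO-control array was left out as an outlier spot. Fpr1 was not well above background on any KO-control array, and was on 4 of 5 KO-injury arrays. Its KO-injury mean, with replicate 5 below background taken as read, was 5.70-fold above a mean of the KO-control floors. A probe's own signal was used where it was above that floor. By the values as read the difference was 3.08 (95% confidence interval 1.25 to 4.92). S100a10 differed by 0.23 in Myd88KO mice (95% confidence interval -0.25 to 0.71), and the difference between the responses was -0.60 (-1.29 to 0.08). Between genotypes 0 partner genes passed in uninjured mice (0 at an unadjusted p under 0.05) or injured mice (5 at an unadjusted p under 0.05). Of all 26063 probes, 1458 and 3264 had such a p. In the difference between the responses 0 passed, and 1, Plau, had an unadjusted p under 0.05, at -1.22 (-2.18 to -0.26). So had 2703 of all 26063 probes. The mean level of the list was 1.48 to 2.05 in WT-control, 2.55 to 3.31 in WT-injury, 1.34 to 1.86 in KO-control and 1.55 to 3.00 in KO-injury mice. By these values the wild-type groups were apart and the Myd88KO groups overlapped. Fpr1 and Fpr2, each well above background in 1 of 5 WT-control mice, enter the means as read. The part of these 2 genes in the separation was not tested. The 1.34 is KO-control replicate 5, averaged without S100a6, a bright gene left out in that mouse. The other KO-control mice, at 1.38 to 1.86, overlapped the KO-injury mice as well. Fpr1 and Fpr2 are also leukocyte genes, and the macrophage and neutrophil lists moved with them. Their part in the partner differences was not tested.

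**Figure D5:**
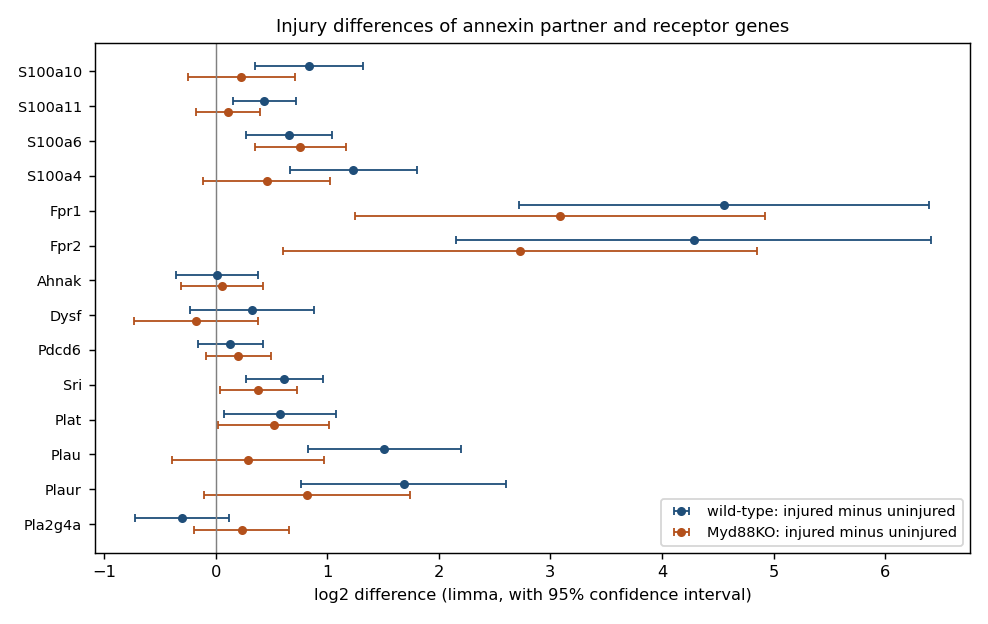
Injury differences of the 14 partner genes tested. The horizontal axis is the log2 difference, injured minus uninjured, with its 95% confidence interval, for 5 against 5 mice in wild-type (blue) and Myd88KO (orange). Fpr1 and Fpr2 lie at 4.55 and 4.28 in wild-type mice by the values as read, with 4 of 5 WT-control mice not well above background for either gene, and at 3.97 and 3.39 with such values raised to the floor.

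Annexins outside the list, Anxa9 and Anxa13, were on the array and were named by family name. Earlier results of these data were known by then, and the p-values of their injury differences carry that limit. Anxa13, a membrane-bound member typical of intestinal and other polarised epithelium, fell in injured wild-type mice at both of its probes. At probe 1 the WT-control mice ranged from -0.91 to 0.96 with a median of -0.16, and the WT-injury mice from -4.41 to -2.77 with a median of -3.84. The groups did not overlap, and the difference was -3.51 ± 0.62 (SE, limma adjusted p = 0.00149), 11.4-fold lower. At probe 2 it was -2.41 ± 0.49 (adjusted p = 0.0034), 5.32-fold lower. KO-control mice ranged from -0.92 to -0.10 at probe 1, and KO-injury mice were at -1.0, -4.93, -3.63, -4.40 and -1.02. Replicates 1 and 5 of KO-injury thus lay next to the uninjured mice, and the difference of -2.32 ± 0.62 did not pass (adjusted p = 0.0466), nor did that of probe 2 (-1.15, adjusted p = 0.200). The difference between the responses of Anxa13 had an adjusted p of 0.632 and 0.527 at its probes. In injured wild-type mice 3 of 6 club cell genes and 1 of 5 ciliated cell genes tested were called lower. Of all probes, 5.26% were called in either direction in that comparison. The mean level of the ciliated cell genes was 1.68 to 2.83 in WT-control and -1.43 to 1.67 in WT-injury mice. The part of these cells in the Anxa13 values was not tested. Anxa9, a member of stratified epithelium, did not pass in any comparison, and WT-control replicate 3 had 2.52 where the other WT-control mice had -2.18 to -1.01.

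The genes whose levels followed Anxa10, Anxa2 and Anxa1 most closely over the 20 arrays were found by Pearson's r, as a description over mice of 4 groups that share the injury. The 5 genes closest to Anxa10 were Rad54b (r = 0.916), a DNA recombination protein, Ccdc116 (0.914), Bora (0.914), which activates mitotic kinases, Myof (0.913), a membrane repair protein, and Cep55 (0.912), needed to end cell division. With the group means taken out, r with these genes was between 0.589 and 0.797. The 5 closest to Anxa1 were Piga (r = 0.932), a gene of glycolipid anchors, a locus listed as LOC619863 (0.929), Kpna2 (0.919), a nuclear import factor, Hmgb2 (0.919), a chromatin protein of dividing cells, and Cep55 (0.919). The 5 closest to Anxa2 at its brighter probe were Nup50 (r = 0.956), a nuclear pore protein, Rplp0 (0.950), a ribosomal protein, Hnrnpab (0.946), an RNA-binding protein, Tagln2 (0.943), an actin-binding protein, and Nrm (0.942), of the nuclear envelope. For Anxa2 the correlation was between 0.890 and 0.941 with the group means taken out, over the same arrays on which these genes were chosen for a high r. Differences between slides or scan days stay in such values, and their part was not tested. Between members, Anxa1 and Anxa10 had r = 0.887, Anxa3 and Anxa10 0.739, Anxa1 and Anxa3 0.722 and Anxa1 and Anxa2 0.701, over the same 20 arrays.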

How the data were processed

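RNA of 20 whole tracheas was hybridised to 1-colour (Cy3) Agilent arrays, 1 mouse per array, and the deposited scanner files were made with Feature Extraction 9.5.1.1. The processed signal used here is an intensity that the authors' scanner software had background-corrected, and the values deposited as a series table matched this intensity (ratio 0.995 to 1.00). Signals of the 1960 outlier spot values were left out, spots of a probe were averaged, and log2 signal minus the 75th percentile of each array was taken. Of 41174 probes, 26063 well above background on at least 10 of 20 arrays were fitted over all 20 arrays with limma 3.58.1 (R 4.3.3), with Benjamini-Hochberg adjustment in each of 5 comparisons and a threshold of 0.01. Groups came from sample titles. The script was tested on simulated data. The number of arrays limits the precision. The annexins, the partner and marker lists, the named genes (every member, Anxa9, Anxa13, partner genes past the threshold or largest after injury, and the 5 genes most like each of 3 members) and the tests were chosen with earlier results of these data known. Alternatives covered scaling, background, filter, slide, scan day, array weights, the one-way test of the methods, each array left out and, added after seeing the data, values below background raised to a floor. No genome was used, and gene names are those of the array with RefSeq aliases.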

Additional observations from a re-analysis of the deposited data

Results flagged for a closer look

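In 76 sets of 5 mice (each annexin probe in each group), 3 held a mouse far from the rest, and chance marks about 1 in 20. Anxa9 was at 2.52 in WT-control replicate 3, the mouse with squamous genes, where the others were at -2.18 to -1.01. Anxa1 was at 6.06 in KO-injury replicate 5, below the 6.62 to 6.75 of the other injured Myd88KO mice, and this mouse had almost none of the wild-type injury response. The Anxa4 probe AK032703 was at -5.92 in WT-injury replicate 1, above the other 4, and was not well above background on any array.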

How the results depend on the processing

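Among the counts and the called annexin differences, 0 reversed under the alternatives run, at most 32 for a result. 1 of them, raising values below background to the floor of the array, was chosen after seeing the data and left 3 partner genes called in wild-type mice and the annexin counts at 1, 1, 1, 1 and 0. The Anxa10 injury difference ranged from 2.95 to 4.18 in wild-type and from 2.74 to 5.34 in Myd88KO mice, and the Anxa6 AK077843 genotype difference from -2.30 to -1.64 uninjured and -2.29 to -1.66 injured. Annexin counts after injury were 0 in both genotypes when only probes well above background on all arrays were kept, which leaves out Anxa10. In Myd88KO mice the count was also 3 with array weights or an adjusted p under 0.05, and 0 in a fit of the compared groups alone or by the one-way test of the methods. It ran from 0 to 3 with 1 array left out: 0 without KO-control replicate 1, 2 or 3 or KO-injury replicate 1, 2, 3 or 4, and 3 without KO-injury replicate 5. Between genotypes it was 0 by the one-way test in uninjured mice, and 0 by that test or in the compared groups alone in injured mice (Anxa6 adjusted p from 1.03e-05 to 0.033 and from 1.66e-04 to 0.0611 over all alternatives). Partner counts in wild-type mice, 4 as reported, were 2 with normexp, 1 with probes above background on all arrays, 8 with array weights, 2 by the one-way test, 9 at an adjusted p under 0.05, and 1 to 5 with 1 array left out (1 without WT-control replicate 2 or 4 or WT-injury replicate 1 or 5, 2 without WT-control replicate 1, 3 or 5 or WT-injury replicate 2). In Myd88KO mice they were 1 with quantile scaling, 2 with array weights, 1 at 0.05, and 0 to 1 with 1 array left out (1 without KO-injury replicate 5). A fit with the replicate block (slide) called 1, 1, 1, 1 and 0 annexin probes in the 5 comparisons and 2 partner genes in wild-type mice. Same-numbered mice share a slide, and their deviations correlated with a mean r of 0.06 to 0.31 and a lowest r of -0.26. The Anxa13 probe 2 call in wild-type mice was lost without WT-control replicate 1 or 2 or WT-injury replicate 1 (adjusted p up to 0.0112). The one-way test and the fit of the compared groups alone could not be run for the difference between the responses. With 5 mice a group, the width of the Anxa10 interval limits that comparison.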
